A study of Homo sapiens with 4 samples.

Results

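The genes described here are 10 regulators and markers of the epithelial-to-mesenchymal transition (EMT), chosen by name from the 58735 genes of the tables. They are the transcription factors SNAI1, SNAI2, ZEB1, ZEB2 and TWIST1, the mesenchymal structural genes VIM and CDH2, and the epithelial genes ESRP1, ESRP2 and EPCAM. RNA-seq was performed on HaCaT cells (HaCAT in the labels), an established line of human keratinocytes whose genotype is given as WT. The siControl group of 2 libraries received a normal control siRNA and the siALKBH5 group of 2 libraries an siRNA against ALKBH5, the demethylase that removes m6A from RNA, with 200 pmol of siRNA per transfection in both. The study asked how the loss of ALKBH5 affects keratinocytes, whose migration closes skin wounds. The model is 1 cell line, and the labels do not say whether the libraries of a group came from separate cultures, so p-values measure the spread between these libraries, which may be technical.

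In EMT, epithelial cells loosen their junctions and gain motility. SNAI1, SNAI2, ZEB1 and ZEB2 are zinc-finger repressors that bind E-box motifs in promoters of epithelial genes, and TWIST1 is a basic helix-loop-helix factor of the same programme. VIM encodes vimentin, the intermediate filament of mesenchymal cells, and CDH2 encodes N-cadherin, the adhesion molecule that replaces E-cadherin when the programme is complete. ESRP1 and ESRP2 are RNA-binding proteins that keep transcripts in their epithelial splice forms, and EPCAM is a cell-surface adhesion molecule of epithelia. Keratinocytes at a wound edge can take up parts of this programme while remaining epithelial.

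Libraries held between 16017502 and 18837807 counts on genes. Levels are given as CPM, the counts of a gene per 1000000 counts of its TMM-scaled library, and as FPKM, the CPM per kilobase of the listed gene length, where genes are compared with each other. Differences between the groups were tested in edgeR by quasi-likelihood on the 15075 genes that its expression filter kept. P-values were adjusted by Benjamini-Hochberg over all of these genes, and genes with an adjusted p under 0.05 were called higher or lower. ALKBH5 was lower by this test in the siALKBH5 libraries, at 90.7 ± 4.42 CPM (SD, n = 2) in siControl and 50.4 ± 1.13 CPM (SD, n = 2) in siALKBH5 (log2 fold change -0.85, SE 0.053, adjusted p = 6.4e-15). With 2 libraries against 2, a permutation of the labels cannot give a two-sided share below 0.333, so every adjusted p rests on the spread that edgeR estimated over all genes.

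The study lists a pair of siRNAs against ALKBH5, and the labels do not say which was used for the libraries. Their antisense strands are shown because the bases in capitals, the seed (bases 2 to 8), can pair with other transcripts.
ALKBH5-si1: uCGCCGAAgaaguacuugu
ALKBH5-si2: uAGUCGUUgaugacggcgc
A perfect match to the seed of ALKBH5-si1 occurred in protein-coding transcripts of 1049 of 19684 genes (5.33%), VIM and EPCAM among them. That of ALKBH5-si2 occurred in 1204 genes (6.12%), CDH2 among them. The CDH2 match lay in the coding sequence on the minus strand, at chr18:27952206-27952212 (GRCh38), and is shown in capitals within its surroundings.
CDH2 seed match: gattacctgAACGACTgggggccac
A seed match is a description of the letters and not evidence of binding. The other 7 members held neither match in their protein-coding GENCODE 29 transcripts, the only ones searched.

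The epithelial genes were abundant, and most of the transcription factors and VIM were at or near 0. Levels that allowed a test were found for 5 genes: SNAI2, CDH2, ESRP1, ESRP2 and EPCAM. The other 5, SNAI1, ZEB1, ZEB2, TWIST1 and VIM, did not pass the filter. In FPKM, EPCAM (52.2 ± 0.0558 in siControl, SD, n = 2) and ESRP1 (50.9 ± 1.43) were the highest and did not differ beyond their spread. ESRP2 followed at 11.7 ± 0.00192 FPKM and SNAI2 at 9.35 ± 0.0562 FPKM, and CDH2 came after these at 0.731 ± 0.208 FPKM. In siALKBH5, ESRP1 (57.6 ± 0.796 FPKM) stood above EPCAM (53.0 ± 0.444 FPKM), and the order of the others was the same. Over all 4 libraries ESRP1 and EPCAM lay at the 97.0 and 96.8 percentiles of the protein-coding genes in mean FPKM, ESRP2 at 83.3, SNAI2 at 79.3 and CDH2 at 51.5.

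**Figure D1:**
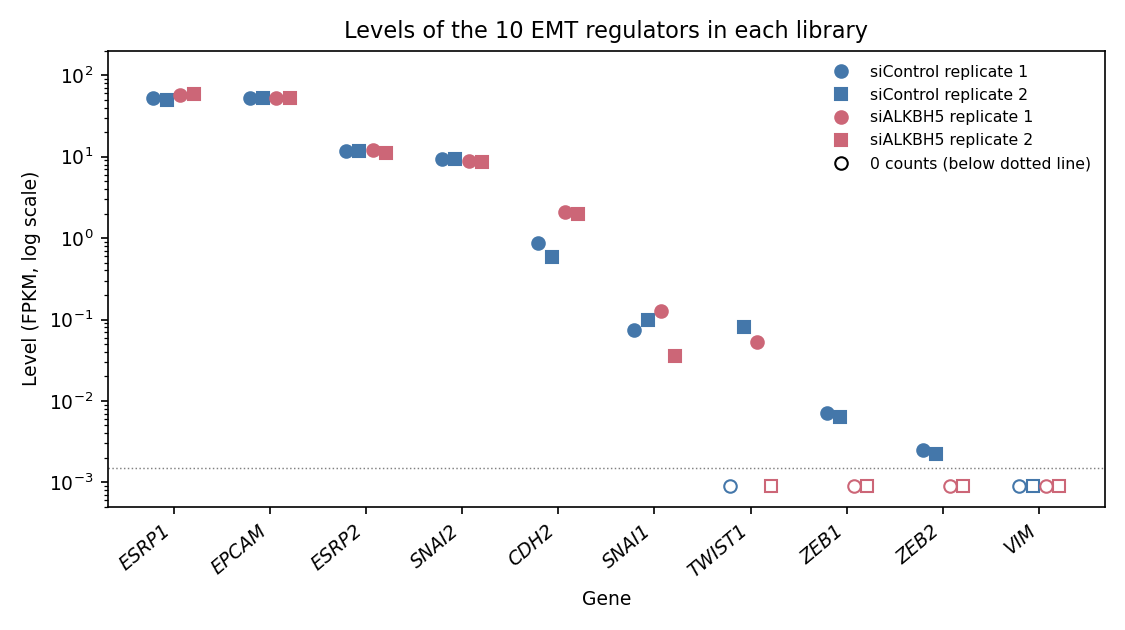
Level of each of the 10 genes in each library in FPKM on a logarithmic axis. Filled points are libraries with at least 1 count and open points below the dotted line are libraries with 0 counts. ESRP1, EPCAM, ESRP2 and SNAI2 lie near or above 10 FPKM, CDH2 near 1 FPKM, and SNAI1, TWIST1, ZEB1, ZEB2 and VIM at or near 0.

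Of the 5 tested genes, 2 were higher in siALKBH5 (CDH2 and ESRP1), beside 19.3% of all tested genes, and 0 were lower, beside 17.3%. DESeq2 also called 0 members lower, and edgeR gave 0 at an unadjusted p under 0.05 in that direction. At that unadjusted threshold limma gave 1 lower member, SNAI2, on log2(FPKM + 1) and on log2(FPKM + 0.1). It did not pass after adjustment (adjusted p = 0.095 and 0.10, limma). CDH2 was the 1 member that also reached a log2 fold change of 1, the fold threshold of the study, which 1.62% of all tested genes reached on the higher side and 1.3% on the lower side.

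Among the transcription factors, SNAI2 was the only one with more than a few counts. SNAI2 (ENSG00000019549, chr8:48917604-48921740, minus strand), which encodes Slug, the family member active in basal keratinocytes, was counted 513 and 568 times under control siRNA against 553 and 479 times after knockdown. This was 31.8 and 31.6 CPM in siControl and 29.6 and 29.1 CPM in siALKBH5. Both siALKBH5 libraries lay below both siControl libraries, as they did for 33.5% of all tested genes. The log2 fold change was -0.11 (SE 0.075, 95% interval -0.26 to 0.04) and did not pass the quasi-likelihood test of edgeR (adjusted p = 0.27).

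SNAI1 (ENSG00000124216), which encodes Snail, was counted only 2 and 3 times under control siRNA against 4 and 1 times after knockdown. That is 0.147 CPM over the siControl group (exact Poisson 95% interval 0.0476 to 0.342) and 0.142 CPM over the siALKBH5 group (0.0462 to 0.332), intervals that cover counting error only. TWIST1 (ENSG00000122691) reached 0 and 3 counts with control siRNA, and 2 and 0 with ALKBH5 siRNA. ZEB1 (ENSG00000148516) and ZEB2 (ENSG00000169554) each had 1 count in each siControl library and 0 in each siALKBH5 library. All values of ZEB1, ZEB2 and TWIST1 were at or under 3 counts per library, which corresponds to 0.161 to 0.186 CPM, so no difference between the groups was detectable at this depth. ZEB1-AS1, an antisense gene that shares 366 of the 8650 exonic bases of ZEB1, held 17 and 23 counts with control siRNA, and 25 and 23 with ALKBH5 siRNA, more than ZEB1 itself. It did not pass the test in edgeR (log2 fold change 0.22, SE 0.37, adjusted p = 0.69).

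The repressors of this group bind the E-box CAGGTG, which reads CACCTG on the other strand. RefSeq promoter windows (GRCh38.p14, from 250 bases before to 50 bases after a start) were matched for 4 members: ZEB1, ZEB2, VIM and CDH2, with 11 windows. The E-box was found on either strand in 20.6% of the windows of all genes. Among these members it was found only in windows of ZEB1. Most of the 11 windows were those of ZEB1, and most ZEB1 windows held no E-box, so the members cannot be compared by this motif. The downstream of the CDH2 starts had a TATAAA motif, present on the gene's strand in 7.33% of all windows, with its first base at -32 from the start. It is shown in capitals because CDH2 is the member that changed most, within a stretch of the minus strand at chr18:28036658-28036683.
CDH2 promoter stretch: gtattccagtTATAAAaagctgcatc
Counts per gene do not tell which start was used.

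VIM (ENSG00000026025, chr10:17228259-17237593, plus strand) had 0 counts in all 4 libraries, out of 69350659 counts in all. By the limit of 3 counts this allows up to 0.0880 CPM over the siControl group and 0.0854 CPM over the siALKBH5 group. It was 1 of 4093 protein-coding genes at 0 in all 4 libraries, of 19951 (20.5%). Of its 5158 exonic bases, 1260 are shared with VIM-AS1 and AL133415.1 on the other strand, both also at 0, and 3898 are shared with no gene. The neighbouring genes RSU1 and STAM had 943 to 1105 and 321 to 418 counts, and VIM2P, a pseudogene of VIM, had 1 count in 1 siALKBH5 library. HaCaT cells in culture are often described with some vimentin, and whether the 0 of these tables is the level of VIM in the cells was not tested.

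Of the members, CDH2 changed most. CDH2 (ENSG00000170558, chr18:27950966-28177446, minus strand) was counted 70 and 52 times under control siRNA against 192 and 159 times after knockdown. The levels were 4.34 and 2.89 CPM in siControl and 10.3 and 9.66 CPM in siALKBH5, or 3.62 ± 1.03 and 9.97 ± 0.437 CPM (SD, n = 2). Both siALKBH5 libraries lay above both siControl libraries, as they did for 32.8% of all tested genes. The log2 fold change was 1.47 (SE 0.17, 95% interval 1.12 to 1.83), which is 2.78-fold, with an adjusted p of 2.6e-08 in edgeR, and it ranked 101 from the highest of the 15075 tested genes. The siControl libraries differed from each other by more than the siALKBH5 libraries did. Without siControl replicate 2 the log2 fold change was 1.20 and without siControl replicate 1 it was 1.79. AC110015.1, an antisense gene that shares 136 of the 4950 exonic bases of CDH2, held 3 and 7 counts with control siRNA, and 20 and 7 with ALKBH5 siRNA. The strand setting of the counting is not given in the sources used here, so reads within the shared bases cannot be told apart.

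**Figure D2:**
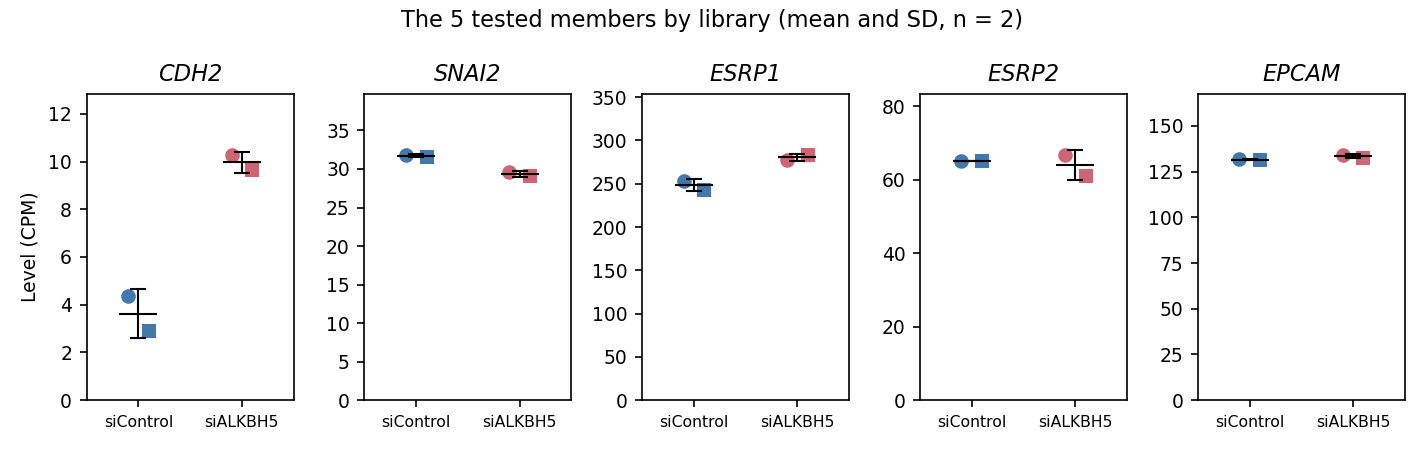
Level in CPM of the 5 tested members in each library, with circles for replicate 1 and squares for replicate 2, and the mean with its SD (n = 2) as black bars. Each axis starts at 0. CDH2 rises from 3.62 to 9.97 CPM, and the other 4 genes lie at similar heights in both groups.

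CDH2 remained far below CDH1 and CDH3. CDH1 (E-cadherin) stood at 62.3 FPKM in siControl and 59.5 FPKM in siALKBH5. Its log2 fold change of -0.06 narrowly did not pass the test (SE 0.026, unadjusted p = 0.019, adjusted p = 0.051, edgeR). CDH3 (P-cadherin, the cadherin of basal keratinocytes) rose from 50.5 to 59.6 FPKM (log2 fold change 0.24, SE 0.027, adjusted p = 6.5e-09, edgeR). CDH2 made up 0.768% and 0.518% of the summed FPKM of these cadherins under control siRNA against 1.71% and 1.61% after knockdown. In the same units CDH1 exceeded CDH2 by 71.8-fold and 105-fold in siControl and by 28.6-fold and 30.5-fold in siALKBH5. CDH5, a cadherin read below as an endothelial marker, stood at 2.26 FPKM in siControl and 1.40 FPKM in siALKBH5. CDH2, at 0.731 and 2.01 FPKM, was below it in siControl and above it in siALKBH5.

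Markers of other cell types were read beside the CDH2 result, since fibroblasts and melanocytes also carry N-cadherin. Of 8 fibroblast markers, COL1A2, PDGFRA, PDGFRB and THY1 were at 0 in all 4 libraries and COL3A1 had counts in 1 library only. The 3 that were tested were DCN (log2 fold change -1.25, adjusted p = 0.00050, edgeR) and LUM (log2 fold change -1.08, adjusted p = 0.021, edgeR), both lower in siALKBH5, and COL1A1, which did not pass. DESeq2 called 1 of the list lower, DCN, and not LUM, and leaving out siControl replicate 1 or either siALKBH5 library also left 1 call. The summed level of the fibroblast list was 21.9 to 22.8 CPM in siControl and 18.7 to 19.1 CPM in siALKBH5. Of 6 melanocyte markers, TYR was at 0 and MITF and PMEL did not pass, and the summed level was 13.7 to 14.1 CPM in siControl and 12.0 to 14.2 CPM in siALKBH5. The endothelial list (5 genes, KDR at 0) summed to 32.5 to 32.6 CPM in siControl and 35.0 to 35.5 CPM in siALKBH5, with VWF higher and CDH5 lower. The leukocyte list (5 genes, 1 of them tested) summed to 2.30 to 3.11 CPM in siControl and 3.83 to 4.23 CPM in siALKBH5, with CD14 higher, a call that DESeq2 did not make. The keratinocyte list (10 genes, all tested) summed to 18563 to 18984 CPM in siControl and 24406 to 24485 CPM in siALKBH5, with 5 genes higher, KRT5 (log2 fold change 0.68) and KRT6A (0.63) foremost, and 4 lower. The part of these marker genes in the CDH2 difference was not tested. In these bulk libraries a change in the number of cells with a gene and a change per cell cannot be told apart.

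The epithelial members kept or raised their levels. ESRP1 (ENSG00000104413, chr8:94641074-94707466, plus strand) was counted 4078 and 4376 times under control siRNA against 5191 and 4664 times after knockdown, or 253 and 243 CPM against 278 and 283 CPM. Both siALKBH5 libraries lay above both siControl libraries, as for 32.8% of tested genes. Its log2 fold change was 0.18 (SE 0.030, 95% interval 0.12 to 0.24), a 1.13-fold rise, with an adjusted p of 1.3e-05 in edgeR. With limma on log2(FPKM + 1) the adjusted p was 0.074 and on log2(FPKM + 0.1) it was 0.092, so the call did not hold on that scale.

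ESRP2 (ENSG00000103067, chr16:68229111-68238102, minus strand) had 65.0 CPM in each siControl library and 66.8 and 61.1 CPM in the siALKBH5 libraries. The siALKBH5 libraries lay on either side of the siControl libraries, and the log2 fold change was -0.02 (95% interval -0.13 to 0.09, adjusted p = 0.79, edgeR). It shares 149 exonic bases with NFATC3 on the other strand, whose log2 fold change was -0.02 (adjusted p = 0.88, edgeR). The ratio of ESRP1 to ESRP2 in FPKM was 4.44 and 4.27 in siControl and 4.75 and 5.30 in siALKBH5, so ESRP1 was the main paralog in every library. EPCAM (ENSG00000119888, chr2:47345158-47387601, plus strand) had 131.7 and 131.5 CPM in siControl and 134.2 and 132.6 CPM in siALKBH5. Its log2 fold change was 0.02 (95% interval -0.06 to 0.10, adjusted p = 0.73, edgeR), and SNAI1, SNAI2, ESRP1 and EPCAM share exonic bases with no other gene.

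**Figure D3:**
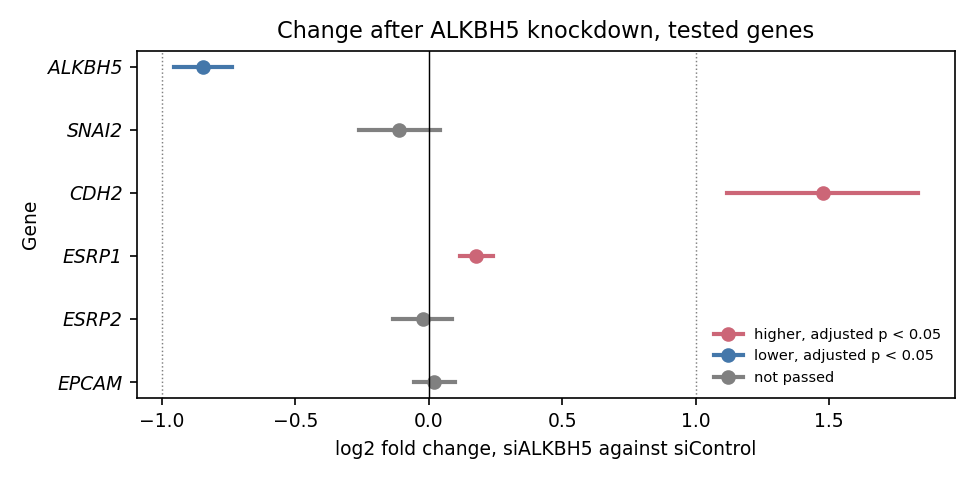
Log2 fold change of ALKBH5 and the 5 tested members, siALKBH5 against siControl, with 95% intervals from edgeR. Dotted lines mark a log2 fold change of 1 in either direction. The interval of CDH2 (1.12 to 1.83) lies beyond the dotted line, that of ESRP1 (0.12 to 0.24) above 0, and those of SNAI2, ESRP2 and EPCAM span 0.

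Related genes were read as lists and are described by counts and medians of the log2 fold change. Over all tested genes, 36.6% were called in either direction and the median log2 fold change was -0.01. Of 15 other transcription factors of EMT, 11 were tested, of which 2 were higher and 5 lower, with a median of -0.18. SNAI3, a further member of the Snail family, rose from 2.93 to 4.81 FPKM (log2 fold change 0.71, SE 0.16, adjusted p = 0.00066, edgeR), so that the ratio of SNAI2 to SNAI3 in FPKM went from 3.49 and 2.93 to 1.86 and 1.75. SOX9 also rose (log2 fold change 0.62). SOX4, a factor acting with TGF-beta signals, fell from 5.58 to 3.05 FPKM (log2 fold change -0.86, SE 0.087, adjusted p = 6.8e-10, edgeR), and FOXQ1, the highest of the list, fell from 132 to 98.4 FPKM (log2 fold change -0.42, adjusted p = 8.7e-13, edgeR). FOXC1 (15.2 and 16.6 FPKM) did not pass. PRRX1 and GSC were at 0 in all libraries, and TWIST2 and FOXC2 were too low to test.

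Of 14 factors that hold the epithelial state, 13 were tested, with 2 higher, 8 lower and a median of -0.09, and DESeq2 called 2 higher and 3 lower. MIR205HG, the host gene of miR-205, fell from 153 to 105 FPKM (log2 fold change -0.55, SE 0.024, adjusted p = 6.4e-19, edgeR). MIR200CHG, the host gene of miR-200c, fell from 9.55 to 5.16 FPKM (log2 fold change -0.91, SE 0.29, adjusted p = 0.014, edgeR). Both miRNAs are known to target ZEB1 and ZEB2, but the counts are those of the host transcripts and not of mature miRNAs. OVOL2, a repressor of ZEB1 in epithelia, was lower as well (log2 fold change -0.34).

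Mesenchymal effector genes moved in both directions, beside 19.3% of all tested genes called higher and 17.3% lower. Of 18 genes, 16 were tested, with 8 higher, 3 lower and a median of 0.23, and DESeq2 called 6 higher and 0 lower, with 2 lower at an unadjusted p under 0.05. LOXL2, a collagen cross-linking oxidase, rose from 0.751 to 1.62 FPKM (log2 fold change 1.11, SE 0.16, adjusted p = 1.0e-06, edgeR). NT5E, the surface nucleotidase CD73, rose from 1.48 to 2.62 FPKM (log2 fold change 0.83, adjusted p = 2.5e-05, edgeR). The highest of the list were S100A4 (125 and 137 FPKM, log2 fold change 0.12) and MMP2 (11.3 and 13.4 FPKM, log2 fold change 0.26), and both were called higher. CALD1, ITGAV and AXL were the 3 that fell in edgeR, CDH11 was at 0, and POSTN had 1 count.

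Genes of the epithelial membrane and its junctions also moved in both directions. All 18 were tested, with 9 higher, 4 lower and a median of 0.07, and DESeq2 called 8 higher and 2 lower. In edgeR scaled by library size only 7 were higher and 5 lower, and with a replicate block 10 were higher and 5 lower. ST14, the membrane protease matriptase, rose from 78.4 to 98.9 FPKM (log2 fold change 0.34, adjusted p = 1.1e-12, edgeR), and its inhibitor SPINT1 rose from 139 to 156 FPKM (log2 fold change 0.16). OCLN, which encodes the tight junction protein occludin, fell from 7.13 to 5.76 FPKM (log2 fold change -0.31, adjusted p = 0.00030, edgeR).

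Splicing genes related to ESRP1 and ESRP2 were read beside all tested genes, of which 36.6% were called in either direction. Of 12 other splicing regulators active in EMT, 2 were higher, 2 lower and 8 did not pass, with a median of -0.04. PTBP1 (log2 fold change 0.16) and KHDRBS1, which encodes Sam68 (0.17), were higher, and PTBP2 (-0.48) and HNRNPM (-0.09) were lower in edgeR, while DESeq2 called 0 of the list lower (0 at an unadjusted p under 0.05). Of 7 transcripts with exons known to be spliced by ESRP proteins, 3 were higher, 1 was lower and 3 did not pass, with a median of 0.08, and the lower one, FGFR2, was not called by DESeq2. SCRIB (log2 fold change 0.26) and CD44 (0.23) rose, and CTNND1 (103 and 104 FPKM) did not pass. Counts per gene do not resolve their splice forms.

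Intermediate filament genes other than VIM were 11, with 6 higher, 2 lower, 2 not passing and DES at 0, and a median of 0.17. NES (nestin), which assembles with vimentin in other cells, rose from 0.370 to 0.862 FPKM (log2 fold change 1.21, SE 0.24, adjusted p = 0.00012, edgeR). SYNM (synemin) rose from 0.274 to 0.528 FPKM (log2 fold change 0.93, adjusted p = 0.0044, edgeR). KRT19 (2400.5 and 2185 FPKM) and KRT7 (400.4 and 324.7 FPKM), keratins of simple epithelia, were the highest and fell, with log2 fold changes of -0.14 and -0.30. The other keratins of simple epithelia on the list rose, KRT8 from 198 to 281 FPKM (log2 fold change 0.50, adjusted p = 1.5e-21, edgeR) and KRT18 from 45.5 to 52.4 FPKM (0.20, adjusted p = 2.2e-05, edgeR).

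TGF-beta signalling, a main inducer of EMT, was represented by 13 genes, of which 1 was higher, 7 were lower and 5 did not pass, with a median of -0.11. The higher one was TGFBI (log2 fold change 0.06), and DESeq2 called 0 higher and 6 lower. The list mixes genes with different parts in the pathway, so these counts give no direction of signalling. ID1 (1982 and 1882 FPKM, log2 fold change -0.07) and ID3 (647 and 575 FPKM, -0.17) were the highest and both fell. ID2, a further inhibitor of basic helix-loop-helix factors, fell from 60.1 to 42.2 FPKM (log2 fold change -0.51, adjusted p = 7.8e-12, edgeR), and SMAD4, the shared mediator of the pathway, from 6.13 to 4.68 FPKM (-0.39, adjusted p = 3.6e-07, edgeR). Of 5 genes that govern turnover of the Snail proteins, 0 were higher in edgeR (1 at an unadjusted p under 0.05), and 2 ubiquitin ligase genes were lower, FBXW7 (log2 fold change -0.40) and FBXL14 (-0.37). DESeq2 called 0 of the 5 in either direction (2 lower at an unadjusted p under 0.05). GSK3B, the kinase that marks Snail for turnover, did not pass (13.4 and 14.4 FPKM).

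**Figure D4:**
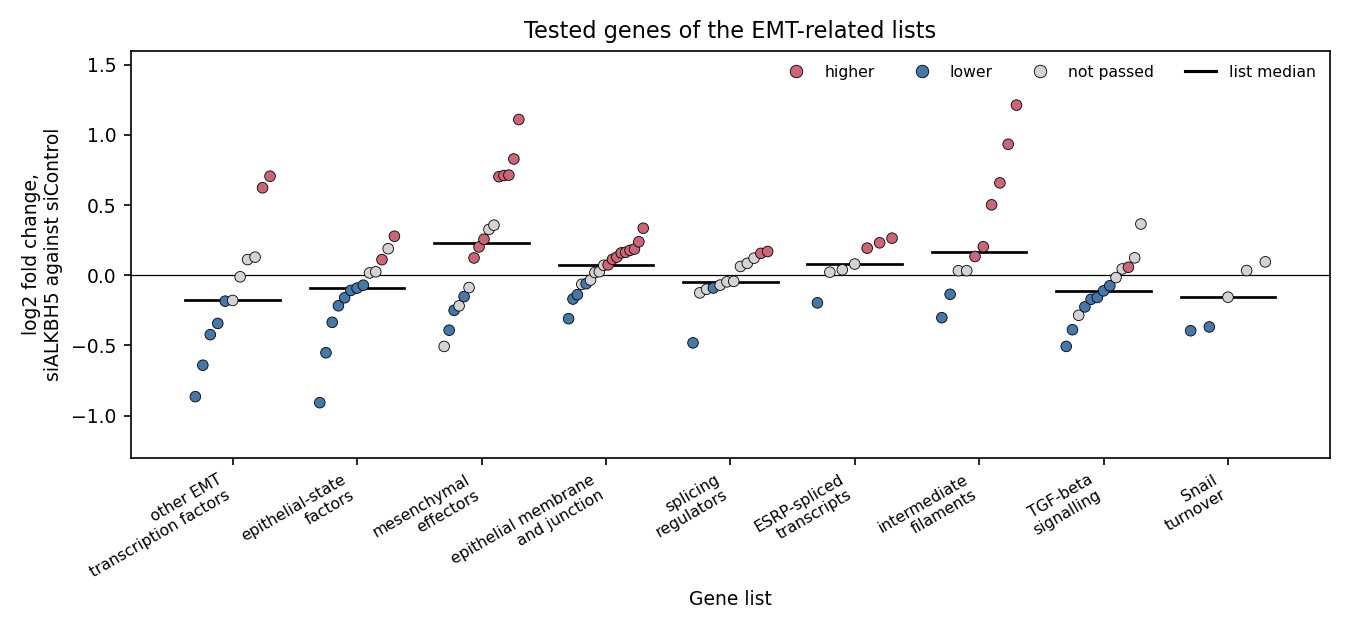
Log2 fold change, siALKBH5 against siControl, of each tested gene in 9 lists related to EMT, ordered within each list by size. Red points were called higher and blue points lower at an adjusted p under 0.05 in edgeR, grey points were not called, and black bars are list medians. Every list except Snail turnover holds genes called in both directions, and medians lie between -0.18 and 0.23.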

How the data were processed

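Poly-A RNA of 4 HaCaT libraries was sequenced. Per the labels, the authors used HISAT2 2.0.5, featureCounts 1.5.0-p3 and DESeq2 1.20.0 with the hg38 build. They deposited 1 table per replicate with raw counts per gene and FPKM. The deposited FPKM were not used as levels because each table was scaled on its own, and FPKM were recomputed from the counts and listed gene lengths. The log2 fold changes and p-values that the authors deposited come from 1 library against 1 and were not used. All 10 members had the identifiers and coordinates of GENCODE 29.

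Counts of the 4 libraries were filtered (filterByExpr), scaled by TMM and fitted with glmQLFit of edgeR 4.0.16 under R 4.3.3. The groups were compared with glmQLFTest without covariates, with Benjamini-Hochberg adjustment. Replicates differed beyond sampling noise (chi-square per degree of freedom 1.74 in siControl and 1.85 in siALKBH5) and were counted separately. The common biological coefficient of variation was 0.0253. Library totals set a limit of 3 counts at 0.161 to 0.186 CPM, which covers counting error only. Alternatives were DESeq2 1.42.0, limma 3.58.1 on FPKM in log2 with a pseudocount of 1 or 0.1 (mean FPKM of at least 1), other scaling and filters (at least 1 count, or a mean of at least 10 counts), a replicate block, and each library left out. Named genes were the members, ALKBH5, genes overlapping members and, per list, the 2 with the highest mean FPKM and the 2 called genes with the largest change; others were named after their values were seen, and some list genes are not reported here. Members and lists were chosen with earlier results of these data known.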

Additional observations from a re-analysis of the deposited data

How the results depend on the processing

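CDH2 was higher at an adjusted p under 0.05 under all 12 alternatives, with log2 fold changes of 0.79 to 1.79 (1.20 to 1.79 with 1 library left out). It stayed above the fold threshold except with limma on log2(FPKM + 1), where 0 members passed it (log2 fold change 0.79, a scale that understates changes of low genes). ESRP1 was called under 10 of 12 alternatives. With limma on log2(FPKM + 1) and log2(FPKM + 0.1), 1 member was higher. SNAI2, ESRP2 and EPCAM were called under none of the 12. ESRP2 ranged from -0.089 to 0.040 with 1 library left out and changed sign without siALKBH5 replicate 2 (0.040), and EPCAM with library size only (-0.0025) and with limma (-0.0027 on both scales). Over all genes, edgeR called 2913 higher and 2610 lower, DESeq2 2054 and 1444, limma 1491 and 1487 on log2(FPKM + 1) and 1227 and 1209 on log2(FPKM + 0.1). The cause of these differences was not tested. Leaving out 1 library gave 2366 to 2528 higher and 1961 to 2124 lower. Replicate numbers shared by the groups gave a correlation of deviations of 0.034, so they were not taken as pairs. With the replicate block 2 members were higher and 0 lower (0 also in the other fits), 3091 genes were higher and 2831 lower, CDH2 was at 1.47 and ESRP1 at 0.18, and no call of a member changed. The 4 transcription factors near 0 counts are limited by depth, and the 0 of VIM was given as listed.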
